A study of Mus musculus with 12 samples.

Results

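A set of 40 genes for DNA replication and mitosis was followed through mouse germ cells made in culture or taken from the embryo. The set was chosen by function: 18 genes act in S phase, when DNA is copied, and 22 act in G2 and mitosis (G2/M), when the copies are checked and shared out. A gene was measured through the probe sets that the array annotation ties to that gene alone, and where a gene had several, the one of highest average signal stood for it. On this rule 39 of the 40 were measured, out of 18194 genes in all, with all 18 of the S phase set and 21 of the G2/M set; Ccnb1 was not analysed here. All 39 were among the 13436 genes tested.

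The 12 arrays held 6 groups of 2, which the sample titles call biological replicates. Primordial germ cells (PGCs) are the embryonic precursors of eggs and sperm, and PGC-like cells (PGCLCs) are their counterparts induced from embryonic stem cells. The PGCLCs were of strain C57BL/6 and carried the BVSC reporters (Blimp1-mVenus and stella-ECFP). They were female at day 3 (d3), female at day 6 (d6F), male at day 6 (d6M), or female day 3 cells then kept for 6 days as aggregates with somatic gonad cells from E12.5 female embryos (d3ag6). The PGCs carried stella-EGFP on a mixed C57BL/6 and BDF1 background and came from E12.5 female embryos or from E9.5 embryos of unknown sex. Every group was sorted by FACS on its reporter, so each array describes reporter-positive cells, and the PGCLC groups differ from the PGC groups in strain and in reporter. The cDNA was amplified by PCR from 5 ng of RNA, given as equal to 500 cells, with 12 initial cycles. The labels do not say from how many embryos or cultures a sample came.

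Of 9 germ cell markers with a probe set, all stood above 4.81, the median of all values (log2), on every array, except that Dazl, a germ cell RNA-binding protein, was at 3.81 on E9.5 replicate 2. A code in the sample descriptions divides the arrays: d3, d6F, d3ag6 and E12.5 carry EA1013, while E9.5 and d6M each have replicate 1 on EA0831 and replicate 2 on EA0842. What the code stands for is not given in the sources used here. Stage and code cannot be told apart in E12.5 minus E9.5, nor sex and code in d6F minus d6M; d6M minus E9.5 is balanced over both codes. In bulk samples such as these, fewer cycling cells and less of a transcript per cell cannot be told apart.

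A dividing cell switches these genes on in successive waves. E2F transcription factors, released from the retinoblastoma protein Rb1, turn on the replication genes before S phase. The B-Myb and FoxM1 factors turn on the mitotic genes in G2, from promoters that often carry CHR and CCAAT elements. Mouse PGCs multiply as they migrate to the gonad, and female PGCs then leave mitotic proliferation and enter meiosis, beginning with a premeiotic round of DNA replication.

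Elements of these kinds can be looked for in the members' own promoters. RefSeq windows from 250 bases before to 50 bases after the transcription start (assembly GRCm38.p6) were found for 31 of the 39 members. No window was found for Mcm4, Gins1, Gins2, Ccne2, Ccna2, Aurkb, Kif20a and Tpx2. Both strands were searched for an E2F element (TTTCGCGC, TTTGGCGC, TTTCCCGC or TTTGGCGG), a CHR (TTTGAA or TTCGAA) and a CCAAT box (CCAAT). The 140 bases before the start are shown, 5′ to 3′ on the gene's strand, for 3 replication genes with an E2F element, for Cdk1, which holds all 3 kinds, and for 2 mitotic genes with the CHR and CCAAT pair; capitals mark the elements.
Mcm6 (chr1:128359706-128359845, minus strand): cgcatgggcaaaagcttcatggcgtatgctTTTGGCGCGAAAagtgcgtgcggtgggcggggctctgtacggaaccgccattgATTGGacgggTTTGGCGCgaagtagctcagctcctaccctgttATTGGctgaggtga
Pola1 (chrX:93632156-93632295, minus strand): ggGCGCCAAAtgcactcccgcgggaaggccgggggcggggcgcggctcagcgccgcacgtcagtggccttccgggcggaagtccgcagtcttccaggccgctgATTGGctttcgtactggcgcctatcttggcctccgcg
Cdc6 (chr11:98908011-98908150, plus strand): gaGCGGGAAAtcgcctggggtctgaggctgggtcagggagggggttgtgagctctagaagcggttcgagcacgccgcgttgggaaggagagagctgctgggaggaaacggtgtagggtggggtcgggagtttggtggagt
Cdk1 (chr10:69352913-69353052, minus strand): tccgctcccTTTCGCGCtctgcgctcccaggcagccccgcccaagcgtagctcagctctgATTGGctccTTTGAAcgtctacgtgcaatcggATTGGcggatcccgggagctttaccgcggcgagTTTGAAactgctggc
Cdc20 (chr4:118437344-118437483, minus strand): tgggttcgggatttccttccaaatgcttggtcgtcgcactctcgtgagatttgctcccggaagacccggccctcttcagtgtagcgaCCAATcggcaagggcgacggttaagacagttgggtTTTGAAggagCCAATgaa
Top2a (chr11:99024190-99024329, minus strand): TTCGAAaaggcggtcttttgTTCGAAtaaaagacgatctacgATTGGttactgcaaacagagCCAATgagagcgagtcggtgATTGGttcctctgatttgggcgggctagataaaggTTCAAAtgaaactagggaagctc

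An E2F element was present in 7 of 14 windows of the S phase set (Mcm3, Mcm5, Mcm6, Mcm7, Cdc6, Cdt1 and Pola1) and in 1 of 17 of the G2/M set (Cdk1), against 2.7% of 27025 genes of the table. Mcm6, a subunit of the replicative helicase, holds 3, at positions -110, -106 and -47 from the start, the first pair overlapping on opposite strands. A CHR was present in 13 of 17 windows of the G2/M set and in 3 of 14 of the S phase set (Mcm2, Mcm7 and Cdc45), against 21.7% of all. The same 13 G2/M windows and 3 S phase windows also held a CCAAT box, a pair found in 9.65% of all genes. A CCAAT box, with or without a CHR, was present in 14 of 17 G2/M windows and 10 of 14 S phase windows, against 41.1% of all. The CCAAT box was thus common in both sets. Cdc20, which activates the anaphase-promoting complex, has its CHR at position -18, and Cdk1, the mitotic kinase, at -71 and -15. These counts describe letters in fixed windows and are not binding data.

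On the probe set chosen for each gene, the group means differed by less than 2-fold for most members of both sets. Signal is given as log2 after quantile normalization, each array in turn, as replicate 1 and replicate 2; a difference of 1 is a 2-fold change. Levels of single probe sets are not ranked against each other, and mean signal serves only to choose genes of like signal for comparison. On every one of the 12 arrays 38 of the 39 members lay above 4.81, the median of all values, compared with 79.2% of all genes tested. The exception was Tyms. Over the 6 groups, the range of a member's group means was below 1 for 34 of 39 (87.2%), against 60.0% of all genes tested, and the median of that range was 0.42 against 0.85. The members are bright, and bright genes vary less on these arrays: among the 2715 genes with a mean above 10, 82.2% had a range below 1, and among the 32 members above that cut, 31 (96.9%) did. Of the members 11 had a mean above 12, and how the 2715 genes spread above the cut was not compared. The highest member value was 13.34, where the lowest array maximum was 13.83. Whether signal this near the top narrows differences was not tested. For 14 of the 39 the gap between the 2 arrays of some group was larger than the whole range of group means (35.9%, against 28.7% of all genes).

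**Figure D1:**
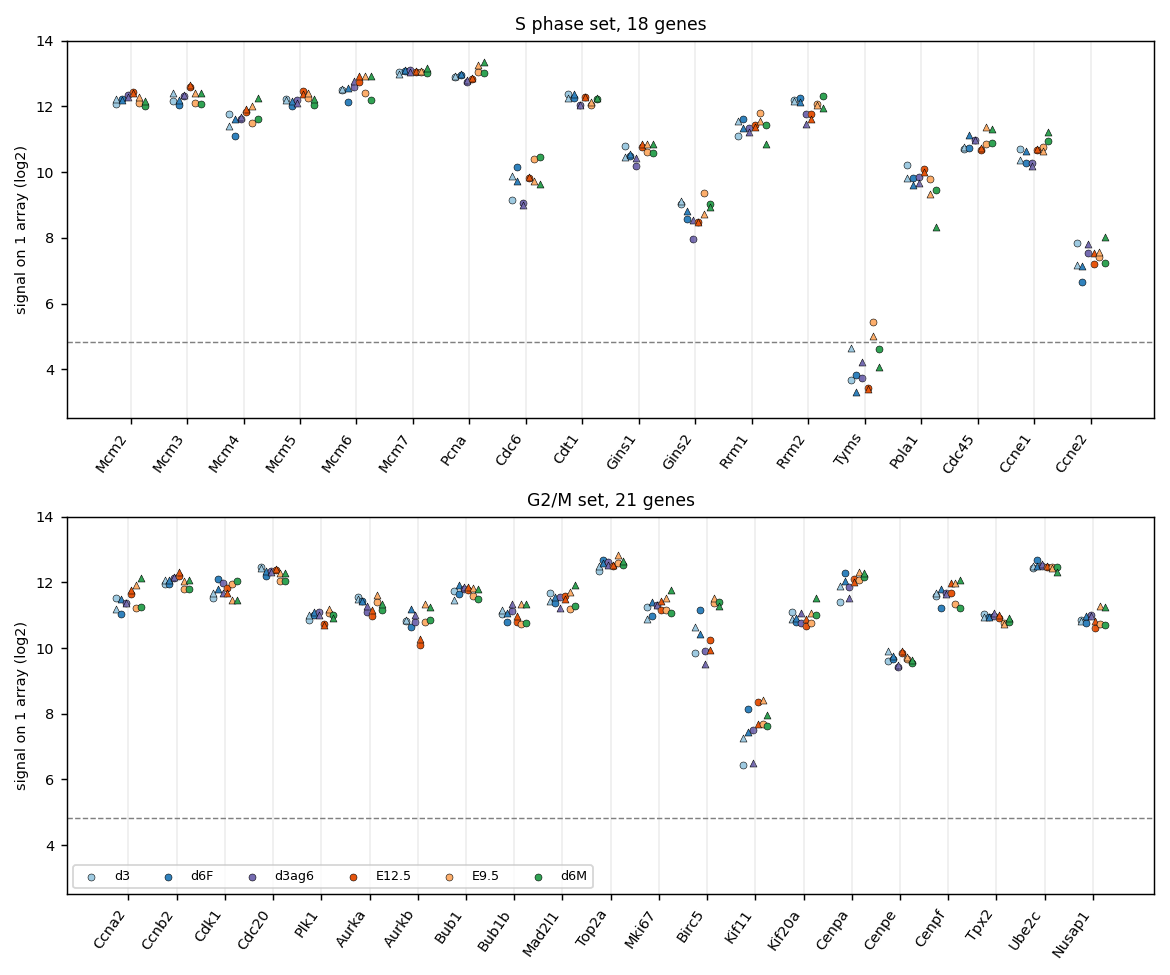
Signal (log2) of each member on each of the 12 arrays, S phase set above and G2/M set below; colours mark the group, circles replicate 1, triangles replicate 2, and the dashed line the median of all values, 4.81. All members but Tyms lie above the line on all 12 arrays, and for most the 12 points stay within a narrow band.

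The MCM proteins form the helicase that opens DNA at origins. Mcm7 was the flattest member, at 13.06 and 13.00 in d3, 13.09 and 13.10 in d6F, 13.10 and 13.06 in d3ag6, 13.05 and 13.07 at E12.5, 13.05 and 13.09 at E9.5, and 13.03 and 13.16 in d6M. Its group means spanned 0.06, less than the gap of 0.13 between the d6M arrays. The other 5 subunits had ranges of group means up to 0.59, the largest in Mcm4. Mcm2, Mcm3, Mcm5 and Mcm6 had their highest mean at E12.5, where Mcm3 read 12.59 and 12.66 and both arrays lay above the 10 others. None of these 6 subunits passed a test in any comparison. Pcna, the sliding clamp that holds the polymerases on DNA, ranged over 0.41, with both E9.5 arrays (13.06 and 13.27) and both d6M arrays (13.03 and 13.34) above all 8 EA1013 arrays.

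Among the licensing and helicase-activating genes the spread was wider. Cdc6, which loads the MCM helicase onto origins, read 9.14 and 9.87 in d3, 10.14 and 9.72 in d6F, 9.05 and 9.01 in d3ag6, 9.83 and 9.84 at E12.5, 10.39 and 9.74 at E9.5, and 10.46 and 9.64 in d6M. Both d3ag6 arrays were below the 10 others, but d3ag6 minus d6F was -0.90 (SE 0.34, adjusted p = 0.159 by limma) and did not pass. Its partner Cdt1 had a range of group means of 0.27, again with both d3ag6 arrays (12.05 and 12.05) near the bottom beside E9.5 (12.04 and 12.14). Gins2, a subunit of the GINS complex that activates the helicase, read 9.04 and 9.12 in d3 against 7.97 and 8.55 in d3ag6, a difference of -0.82 (SE 0.25, adjusted p = 0.0692). Gins1 ranged over 0.51 and Cdc45, the helicase's other cofactor, over 0.41.

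Ribonucleotide reductase, whose subunits are Rrm1 and Rrm2, makes the deoxynucleotides for replication, and thymidylate synthase (Tyms) makes the thymine nucleotide. Rrm2 read 12.21 and 12.18 in d3, 12.26 and 12.13 in d6F, 11.77 and 11.47 in d3ag6, 11.76 and 11.62 at E12.5, 12.06 and 12.03 at E9.5, and 12.32 and 11.97 in d6M. The 4 arrays of d3ag6 and E12.5 all lay below the 8 others. Rrm1, the large subunit, did not share the order of the chosen Rrm2 probe set. The 2 lowest Rrm1 arrays were d6M replicate 2 (10.86) and d3 replicate 1 (11.10). Pola1, the catalytic subunit of the primase-polymerase that starts each DNA strand, lay between 9.61 and 10.22 on the 8 EA1013 arrays. It was at 9.80 and 9.34 at E9.5 and at 9.45 and 8.32 in d6M, so that its low d6M mean rests on replicate 2. The E cyclins, which drive entry into S phase, had ranges of 0.84 (Ccne1) and 0.78 (Ccne2), Ccne1 being highest in d6M at 10.94 and 11.21.

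In the G2/M set the ranges of group means of the cyclins measured and their kinase were 0.46 for Ccna2, 0.34 for Ccnb2 and 0.34 for Cdk1. The Ccna2 arrays differed by more than its range within E9.5 (0.70) and within d6M (0.88). The anaphase-promoting complex marks mitotic proteins for destruction, and its activator Cdc20 and its conjugating enzyme Ube2c ranged over 0.28 and 0.19. Ube2c read 12.45 and 12.51 in d3, 12.68 and 12.49 in d6F, 12.51 and 12.57 in d3ag6, 12.48 and 12.51 at E12.5, 12.48 and 12.45 at E9.5, and 12.46 and 12.33 in d6M. The spindle checkpoint genes Bub1, Bub1b and Mad2l1, which hold anaphase until every chromosome is attached, ranged over 0.21, 0.36 and 0.22. A second Bub1 probe set disagreed: it read 8.39 and 8.16 at E12.5 and between 6.46 and 7.53 on the 10 other arrays. Top2a, the topoisomerase that untangles chromosomes, and Mki67, the Ki-67 antigen used as a marker of proliferation, ranged over 0.28 and 0.35. Of the spindle proteins, Tpx2, which activates Aurora A, stayed between 10.72 and 11.07 on all 12 arrays and Nusap1 ranged over 0.30. The centromere proteins Cenpe and Cenpf ranged over 0.42 and 0.32, and Cenpa, the centromeric histone, over 0.57.

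The members of the G2/M set with wider ranges were Kif11, Birc5 and Aurkb. Kif11, the motor that pushes the spindle poles apart, had a range of 1.20, but its arrays differed by up to 0.998 within a group: it read 6.44 and 7.28 in d3 and 7.51 and 6.52 in d3ag6. Birc5 (survivin) and Aurkb (Aurora B) belong to the chromosomal passenger complex, which corrects chromosome attachment and drives cytokinesis. Birc5 read 9.84 and 10.64 in d3, 11.16 and 10.43 in d6F, 9.91 and 9.51 in d3ag6, 10.25 and 9.95 at E12.5, 11.36 and 11.52 at E9.5, and 11.40 and 11.28 in d6M. Aurkb read 10.81 and 10.85 in d3, 10.65 and 11.18 in d6F, 10.81 and 10.99 in d3ag6, 10.11 and 10.26 at E12.5, 10.80 and 11.34 at E9.5, and 10.84 and 11.25 in d6M. For Aurkb both E12.5 arrays lay below the 10 others; for Birc5 the 4 arrays of E9.5 and d6M lay above the 8 with code EA1013.

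**Figure D2:**
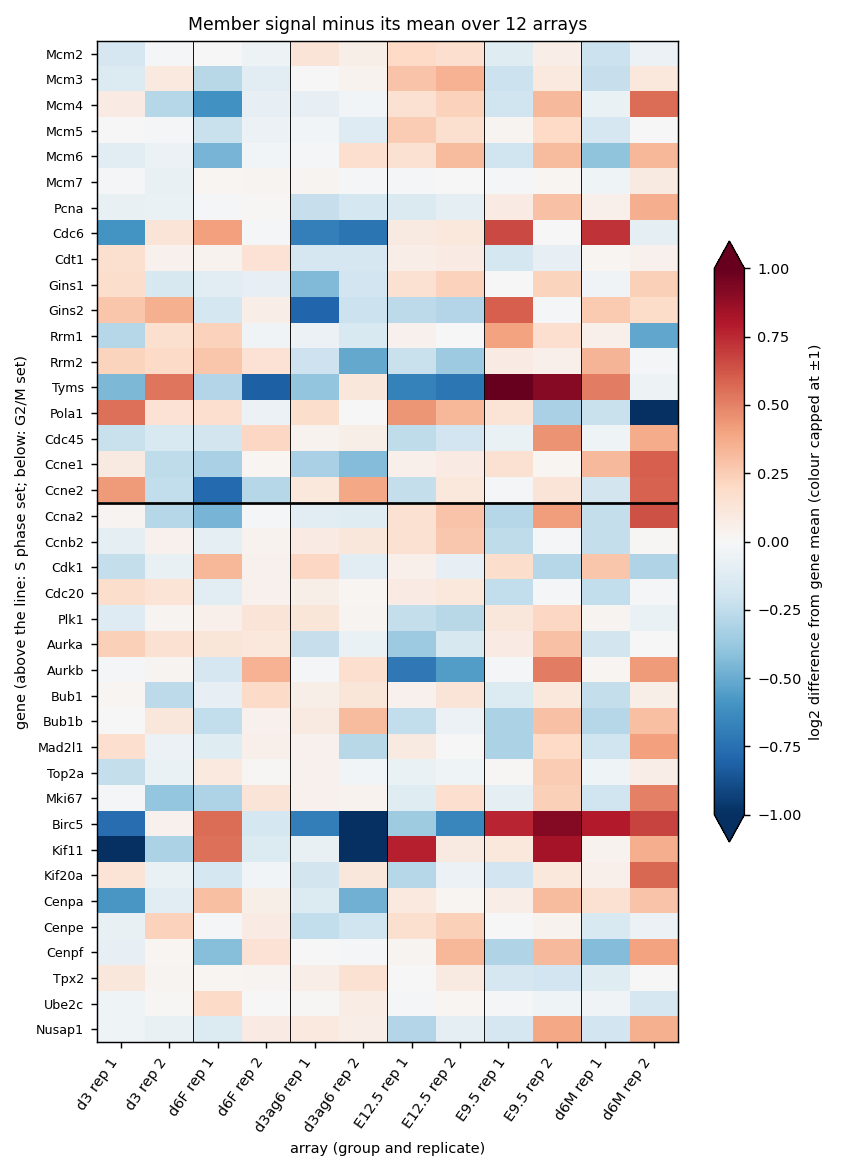
Signal of each member minus its mean over the 12 arrays (log2, colour capped at ±1), with genes in rows and arrays in columns; the heavy line parts the S phase set from the G2/M set. Most cells are pale; the stronger colours fall on Tyms, Birc5, Kif11, Cdc6 and Aurkb, and replicate 2 of E9.5 and of d6M is redder than replicate 1 for many G2/M genes.

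Changes were tested on group means by limma, with p-values adjusted by Benjamini-Hochberg over all 13436 genes and a call at an adjusted p under 0.05. The first question is whether any member varied among d3, d6F, d3ag6 and E12.5, the groups on 1 array code. In the F test over these 4 groups 0 of 39 members were called, against 24.4% of all genes tested and 15.8% of those with a mean above 10. At an unadjusted p under 0.05 there were 4 (10.3%, against 38.0% of all genes): Rrm2, Gins2, Aurkb and Birc5. Rrm2 came nearest, with an adjusted p of 0.0529, and it passed under 6 other fits (adjusted p 0.0161 to 0.0451), while it missed the threshold with no filter (0.0975), with its second probe set (0.0519) and in each of 8 fits without 1 array (0.0653 to 0.147). The range of group means over these 4 groups was below 1 for 37 of 39 members, against 73.7% of all genes, and below 0.5 for 27 of 39 (69.2%), against 37.9%.

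Between female PGCLCs at day 3 and day 6, 0 of 39 members were called, where the share for all genes was 4.06%. Among genes with a mean above 10 it was 1.29%, and at such shares few calls would fall among 39 genes in any case. The 1 member with an unadjusted p under 0.05 was Cenpa, at 11.42 and 11.89 in d3 and 12.29 and 12.06 in d6F (difference 0.52, SE 0.21, adjusted p = 0.25), and the difference ranged from 0.29 to 0.76 with an array left out. Such a p was held by 2.56% of the members and by 16.2% of all genes. The median difference was -0.088 over the S phase set and 0.026 over the G2/M set, beside -0.011 over all genes. Of the 39 members 19 had a higher and 20 a lower mean at day 6.

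Aggregation with gonadal somatic cells gave the same count. In d3ag6 minus d6F 0 of 39 members were called (6.39% of all genes), and in d3ag6 minus d3 0 of 39 (10.6%). Among genes with a mean above 10 the shares were lower, 3.24% and 5.38%. These comparisons share the d3ag6 arrays. Unadjusted, 5 members (12.8%, against 22.8% of all genes) and 2 members (5.13%, against 24.2%) stood under 0.05. In d3ag6 minus d6F these were Birc5 (-1.09, SE 0.31, adjusted p = 0.0793), Rrm2 (-0.57, SE 0.17, adjusted p = 0.0932), Cdc6, Cenpa and Ccne2, of which Ccne2 alone was higher in d3ag6. In d3ag6 minus d3 they were Gins2 and Rrm2 (-0.57, SE 0.17, adjusted p = 0.0739). Rrm2 passed under 2 of the other settings in d3ag6 minus d6F (adjusted p 0.0399 to 0.425 over all of them) and under 4 in d3ag6 minus d3 (0.0273 to 0.345). The median over the S phase set was 0.010 in d3ag6 minus d6F and -0.10 in d3ag6 minus d3, and over the G2/M set -0.015 and 0.058. In the same comparison 11 of 13 listed meiosis genes were called higher in d3ag6 than in d6F, with a median of 2.25. Stra8, the gatekeeper of meiotic entry, read 3.49 and 3.81 in d6F and 10.24 and 10.66 in d3ag6. Markers of other cells moved with this comparison too. The summed level of 14 gonadal somatic markers was 8.69 to 8.77 in d6F, with 3 above 4.81 on both arrays, and 9.46 to 9.59 in d3ag6, with 6; 2 of 9 tested were called higher, among them Amhr2 (3.12, adjusted p = 0.00122). For blood and macrophage markers the summed level was 8.91 to 9.05 in d6F, where 3 of 14 stood above 4.81 on both arrays, and 11.30 to 11.63 in d3ag6, with 9 of 14; their part in the members' values was not tested.

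Set against female E12.5 PGCs, the aggregated cells again had 0 of 39 members called, where 9.03% of all genes were. Of genes with a mean above 10, 5.38% were. An unadjusted p under 0.05 was held by 7 members (17.9%), the most of the pairwise comparisons, against 23.0% of all genes. Of these, Cdc6, Gins1, Ccne1, Kif11 and Cenpe were lower in d3ag6, and Plk1 and Aurkb higher. Aurkb differed by 0.71 (SE 0.24, 95% interval 0.16 to 1.27, adjusted p = 0.114). Of the S phase set 14 of 18 had a lower mean in d3ag6, with a median of -0.19, while the G2/M set was split 11 to 10 with a median of 0.015; the median of all genes was 0.0033. Of 10 blood and macrophage markers tested 6 were called higher in d3ag6 and 1 lower, with a summed level of 11.30 to 11.63 against 9.17 to 9.35 at E12.5. Called higher in d3ag6 were 1 of 9 mesenchyme, 1 of 9 gonadal somatic and 2 of 10 endothelial markers, and 0 were called lower. The mesenchyme gene Col3a1 was 3.80 higher, the gonadal somatic gene Amhr2 1.79 and the endothelial gene Egfl7 1.75. The part of all these markers in the members' values was not tested.

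**Figure D3:**
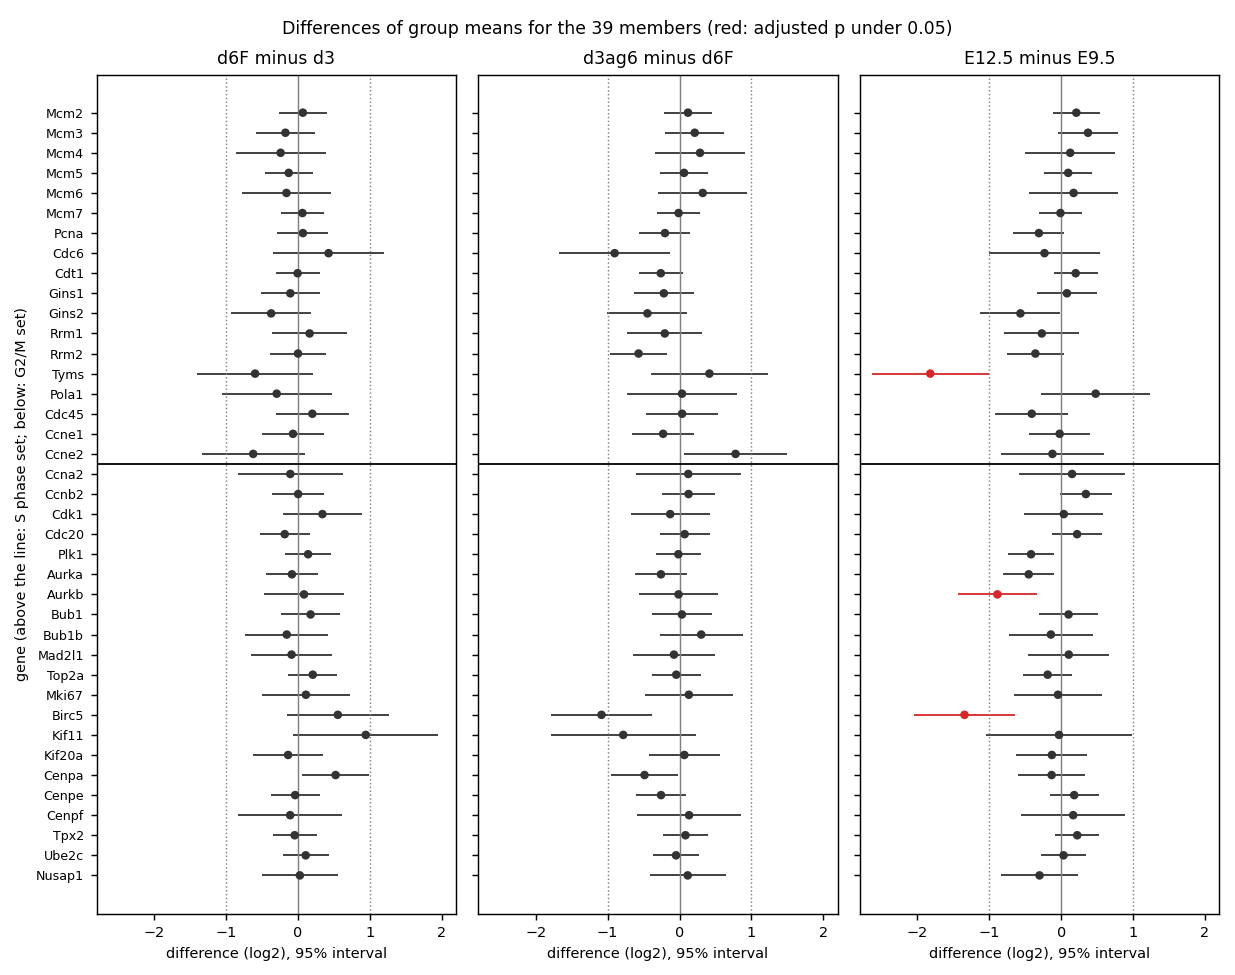
Difference of group means (log2, points) with its 95% interval (lines) for each member in 3 comparisons; red marks an adjusted p under 0.05, dotted lines a 2-fold change, and the horizontal line parts the S phase set from the G2/M set. Most intervals lie inside the dotted lines; Tyms, Aurkb and Birc5 are called in E12.5 minus E9.5.

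Between E9.5 and E12.5, as the PGCs pass from migration to the female gonad, 3 of 39 members were called, each lower at E12.5: Birc5, Aurkb and Tyms. Among all genes 23.6% were called and 10.7% were called lower. The 3 members, all lower, are 7.69% of the set, near the share of all genes called lower. The call and direction of Tyms were in part set by the filter, as given next, and the other 38 members gave 2 calls. Among those with a mean above 10, 2 of 32 members were called (6.25%), against 15.9% of all such genes. Tyms read 3.66 and 4.65 in d3, 3.82 and 3.29 in d6F, 3.72 and 4.22 in d3ag6, 3.44 and 3.39 at E12.5, 5.44 and 5.02 at E9.5, and 4.63 and 4.06 in d6M. Its 2 E9.5 arrays alone exceed 4.81 and alone admitted it to the test, so that it could only be lower elsewhere. Its means of 5.23 ± 0.30 at E9.5 and 3.41 ± 0.04 at E12.5 (SD, n = 2) are therefore given as a description. At E12.5 it lies below that level, where the size of a difference is uncertain; the fit gave -1.82 (adjusted p = 0.00731, and 0.0167 with no filter). A further probe set, annotated to Tyms and the pseudogene Tyms-ps together, was left out by the rule.

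Birc5 fell by 1.34 (SE 0.31, adjusted p = 0.0149), from 11.44 ± 0.11 to 10.10 ± 0.21, and Aurkb fell by 0.89 (SE 0.24, adjusted p = 0.0301), from 11.07 ± 0.38 to 10.19 ± 0.11 (SD, n = 2). These are folds of 2.54 and 1.85. A second Aurkb probe set, on its own in the test, gave -0.89 (adjusted p = 0.0258). With an array left out, Birc5 lost its call without E12.5 replicate 1 (0.0534), E12.5 replicate 2 (0.0966) or E9.5 replicate 2 (0.0617). Aurkb lost its call without E12.5 replicate 1 (0.153), E12.5 replicate 2 (0.0946) or E9.5 replicate 2 (0.147), and also with no filter (0.0558) or with only the 4 arrays compared (0.0713). Without either E12.5 array neither was called, and the count was 1, Tyms, which the filter had admitted with all arrays.

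In E12.5 minus E9.5 an unadjusted p under 0.05 was held by 6 members (15.4%), against 37.5% of all genes. They were the 3 called, Gins2, Aurka and Plk1. Gins2 had means of 9.05 at E9.5 and 8.48 at E12.5, and its difference ranged from -0.88 to -0.26 with an array left out. Aurka and Plk1 had lower means at E12.5 without passing. Cdk1 (11.71 at E9.5 and 11.75 at E12.5) and the checkpoint kinase Bub1 (11.71 and 11.82) had slightly higher ones. Aurka (Aurora A, of the spindle poles) read 11.41 and 11.63 at E9.5 and 10.96 and 11.17 at E12.5 (-0.45, SE 0.16, adjusted p = 0.0697). Plk1, the polo kinase of mitotic entry, read 11.08 and 11.18 at E9.5 and 10.73 and 10.69 at E12.5 (-0.42, SE 0.14, adjusted p = 0.0587). Both were called with eBayes with trend and robust, under which 5 members were called in place of 3, and with the filter at the 75th percentile, under which 4 were. The remaining subunits of the passenger complex did not share the direction: Incenp, its scaffold, was 0.48 higher at E12.5 (adjusted p = 0.0888) and Cdca8 (borealin) differed by 0.04 (adjusted p = 0.89). The median difference was -0.015 over the S phase set and -0.030 over the G2/M set, beside 0.080 over all genes.

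Markers of other cells moved with this comparison. Of 9 mesenchyme markers tested 7 were called lower at E12.5, and 3 of 10 endothelial markers were. Of 10 blood and macrophage markers 1 was called lower, the embryonic globin Hbb-y (-5.50), and 1 higher, Tyrobp (0.97). Of 9 gonadal somatic markers 2 were called lower and 1 higher, Amhr2 (1.30). The summed level of the blood list was 11.59 to 12.66 at E9.5 and 9.17 to 9.35 at E12.5, with 4 of 14 genes above 4.81 on both arrays of each stage, and that of the mesenchyme list 11.79 to 12.71 and 10.87 to 10.96. Their part in the result was not tested. For Birc5 d6F minus d6M, which also sets EA1013 against the other codes, was -0.54 (SE 0.31, adjusted p = 0.389), and for Aurkb -0.13 (SE 0.24, adjusted p = 0.798). The contrast (E12.5 minus E9.5) minus (d6F minus d6M), in which a constant shift between codes cancels, called 0 of 39 members against 9.62% of all genes. Of genes with a mean above 10 it called 4.94%. Plk1 and Aurka stood under an unadjusted 0.05 (5.13% of the members, against 24.9% of all genes). In this contrast Aurkb was -0.75 (95% interval -1.54 to 0.03, adjusted p = 0.218), Birc5 -0.80 (-1.80 to 0.20, adjusted p = 0.309) and Tyms -1.03 (-2.18 to 0.11, adjusted p = 0.248). The Tyms value is a description only, since its E9.5 arrays alone had admitted it to the test.

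**Figure D4:**
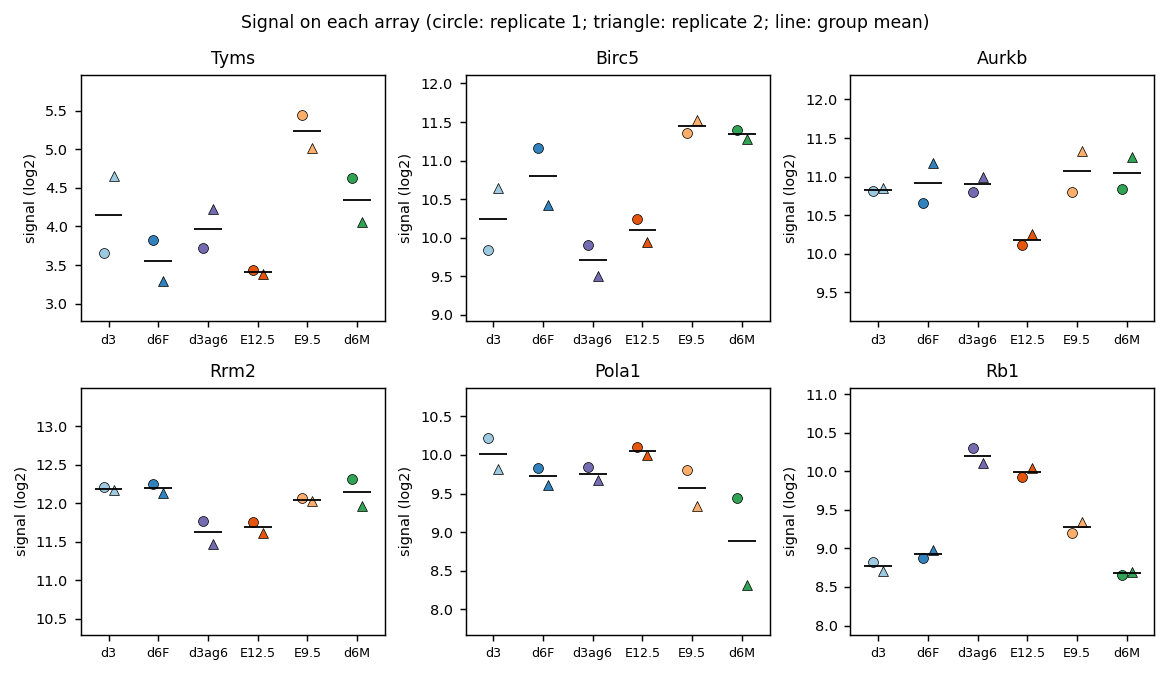
Signal (log2) on each array for Tyms, Birc5, Aurkb, Rrm2, Pola1 and the regulator Rb1, by group; circles are replicate 1, triangles replicate 2, lines group means, and every panel spans the same number of log2 units. Aurkb is lowest in E12.5, Rrm2 is low in d3ag6 and E12.5, and Rb1 is high in d3ag6 and E12.5.

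Day 6 male PGCLCs and E9.5 PGCs, the culture and embryo groups with the same codes, had 0 of 39 members called (10.6% of all genes). Of genes with a mean above 10, 5.19% were called. The median absolute difference of the members was 0.098, beside 0.27 over all genes, the smallest of the 7 pairwise comparisons for the members. Tyms (-0.89, adjusted p = 0.176) was the 1 member with an unadjusted p under 0.05 (2.56%, against 22.5% of all genes). Its 2 E9.5 arrays alone had admitted it to the test, so this value too is given as a description. With the code as a block the count of members stayed at 0, where 14.9% of all genes were called, and Pola1 came nearest (-0.69, SE 0.21, adjusted p = 0.063). Of the markers of other cells, 5 of 9 gonadal somatic and 5 of 9 mesenchyme markers were called lower in d6M, and 3 of 10 endothelial markers higher. Of 10 blood and macrophage markers 1 was called, Hbb-y (-9.98). The part of these markers was not tested. Within EA0831 Pola1 differed by -0.36 and within EA0842 by -1.02. Without d6M replicate 1 Pola1 was called, in this comparison and in d6F minus d6M, which raises the count from 0 to 1 in each.

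Female and male PGCLCs at day 6 had 0 of 39 members called, where 1.47% of all genes were. Of genes with a mean above 10, 0.184% were. An unadjusted p under 0.05 was held by 3 members (7.69%), against 18.2% of all genes. Unadjusted, Pola1, the gene on the X chromosome shown among the promoters, was higher in females (0.84, SE 0.34, adjusted p = 0.236), and Ccne1 (-0.61, SE 0.19, adjusted p = 0.148) and Ccne2 (-0.73, SE 0.32, adjusted p = 0.266) were lower. With an array left out Ccne2 ranged from -1.12 to -0.35 and Pola1 from 0.27 to 1.40.

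Since a missed threshold does not show that values were alike, the intervals were counted. The 95% interval of the difference, not adjusted for the number of genes, lay within 2-fold either way for 33 of 39 members in d6F minus d3 (84.6%, against 65.7% of all genes), 33 in d3ag6 minus d6F (60.8% of all), 34 in d3ag6 minus d3 (60.0%), 31 in d3ag6 minus E12.5 (60.5%), 35 in d6M minus E9.5 (61.6%), 31 in d6F minus d6M (63.1%) and 32 in E12.5 minus E9.5 (49.9%). In all 7 it did so for 27 members (69.2%), 10 of 18 of the S phase set and 17 of 21 of the G2/M set, against 28.0% of all genes. With a mean above 10 the figures were 26 of 32 members (81.2%) and 53.2% of all such genes, a cut that does not make brightness equal. The 12 members whose interval reached 2-fold in some comparison were Mcm4, Cdc6, Gins2, Rrm1, Tyms, Pola1, Ccne1, Ccne2, Ccna2, Aurkb, Birc5 and Kif11. For those, the interval includes a 2-fold change in at least 1 comparison. All these counts cover the chosen probe set of each gene. Bub1 and Rrm2 are among the 27, but another Bub1 probe set had means of 7.26 in d3ag6 and 8.28 at E12.5. The third Rrm2 probe set had 10.07 at E9.5 and 8.78 at E12.5. How many members keep the bound on other probe sets was not counted.

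A shift shared by many members lay within groups. In E9.5 and in d6M the replicates carry different codes, and 27 of 39 members (69.2%) were higher on EA0842 than on EA0831 in both groups, against 34.9% of all genes and 46.9% of those with a mean above 10. In the opposite direction were 8 of 39 (20.5%), against 37.6% of all. Replicate 2 exceeded replicate 1 in 19 to 26 of 39 members of the 4 other groups, where both arrays have 1 code, and in 29 of 39 in both E9.5 and d6M. The G2/M set gave 16 of 21 and the S phase set 11 of 18. Ccna2, the cyclin of S phase and G2, was higher on EA0842 by 0.70 in E9.5 and 0.88 in d6M, Cenpf by 0.63 and 0.84, Mcm6 by 0.51 and 0.73, and Bub1b by 0.60 and 0.58. Pola1 (-0.46 and -1.13), Cdc6 (-0.65 and -0.82) and Cdk1 (-0.46 and -0.57) ran the other way. After centring each gene, the median of the G2/M set was -0.10 and 0.24 on the E9.5 arrays and -0.15 and 0.29 on the d6M arrays, outside the span of -0.09 to 0.04 of the 8 EA1013 arrays. Members of 1 sample share its RNA and its amplification, so that they are not independent, and the cause of the shift was not tested.

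**Figure D5:**
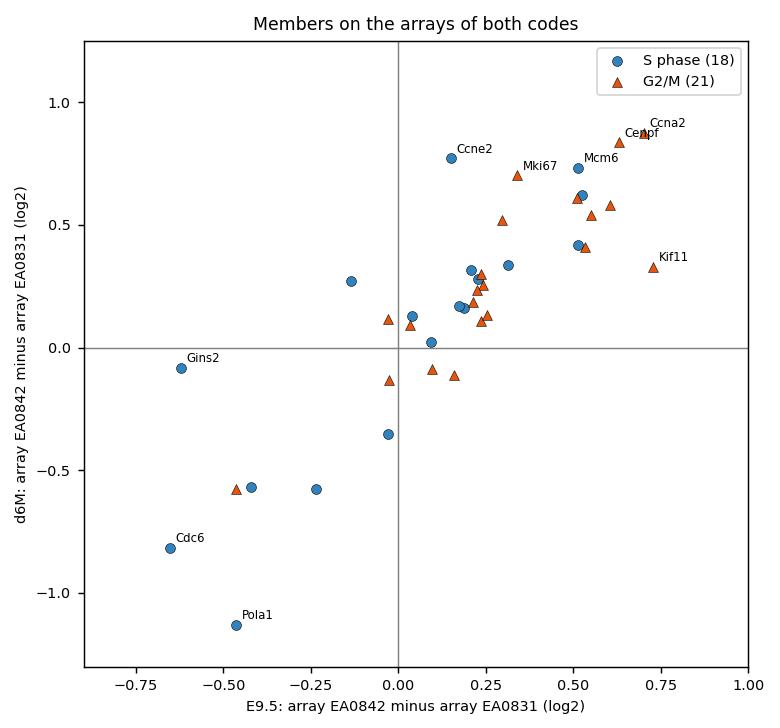
Signal on the EA0842 array minus that on the EA0831 array (log2), in E9.5 on the horizontal axis and in d6M on the vertical axis, for the 18 S phase and 21 G2/M members. The upper right, where both differences are above 0, holds 27 of the 39 members, and Pola1, Cdc6 and Cdk1 lie to the lower left.

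Other genes of the same machinery were read from 3 fixed lists. Of 32 further replication genes tested, 0 were called in d6F minus d3 and in d6F minus d6M, 1 in each of d3ag6 minus d6F, d3ag6 minus d3 and d6M minus E9.5, 3 in d3ag6 minus E12.5 (all lower) and 7 in E12.5 minus E9.5 (5 higher, 2 lower, 21.9% of the list against 23.6% of all genes). Rpa2, a subunit of the protein that coats single-stranded DNA, rose by 1.10 between E9.5 and E12.5 (SE 0.15, adjusted p = 0.00117), from 11.17 and 11.19 to 12.27 and 12.29, and kept that call with any array left out. Its smaller calls, 0.63 and 0.57 higher in d3ag6 than in d6F and d3, were lost in all 4 such fits. Wdhd1 (And-1), which couples the helicase to the primase-polymerase, was 0.85 higher at E12.5 than at E9.5 (adjusted p = 0.009, lost without E12.5 replicate 1) and differed by -0.86 in d3ag6 minus E12.5 (adjusted p = 0.0183, lost without d3ag6 replicate 2 or either E12.5 array). Timeless, of the fork protection complex, was 0.71 higher at E12.5 than at E9.5 (adjusted p = 0.00788), a call lost without E12.5 replicate 2. The 2 other calls in d3ag6 minus E12.5, Rpa2 (-0.59) and Timeless (-0.58), were lost in all 4 fits without an array. In the F test over the EA1013 groups 6 of the 32 were called (18.75%, against 24.4% of all genes), among them Rpa2 and Wdhd1.

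Of 43 further mitotic genes tested, 0 were called in d6F minus d3, d3ag6 minus d6F, d3ag6 minus d3 and d6F minus d6M, although 0, 2, 1 and 4 had an unadjusted p under 0.05. Among all genes 16.2%, 22.8%, 24.2% and 18.2% had such a p in those comparisons. In E12.5 minus E9.5, 5 were called (2 higher, 3 lower), 11.6% of the list against 23.6% of all genes. In d6M minus E9.5 there was 1 call, lower, and in the contrast where a constant shift between codes cancels there were 3, all lower. Cenpk, of the centromere, fell by 0.80 (SE 0.16, adjusted p = 0.00758), which did not hold when E12.5 replicate 2 was left out. Hmmr, a spindle protein, and Espl1, the separase that opens cohesin, rose by 0.67 (adjusted p = 0.0171) and 0.61 (adjusted p = 0.021). Pttg1 (securin), the inhibitor of separase, was 0.65 higher in d3ag6 than at E12.5 (adjusted p = 0.0261). The calls of Espl1 and Pttg1 were lost in all 4 fits without an array and that of Hmmr in 3 of 4, kept only without E9.5 replicate 2. In the F test over the EA1013 groups 2 of the 43 were called (4.65%, against 24.4% of all genes).

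Of 27 regulators that govern the waves, 4 were called in E12.5 minus E9.5 (14.8%, against 23.6% of all genes). In the F test over the EA1013 groups 4 were called (14.8%, against 24.4%), and in d3ag6 minus d6F 2 (7.41%, against 6.39%). By limma, Fzr1 (-1.52, adjusted p = 0.0129) and Cdk4 (-1.02, adjusted p = 0.0157) were lower at E12.5 than at E9.5. Neither call held with every array left out in turn. The pocket protein Rb1 was called in 4 of the 7 pairwise comparisons. It read 8.83 and 8.71 in d3, 8.88 and 8.98 in d6F, 10.30 and 10.10 in d3ag6, 9.93 and 10.04 at E12.5, 9.20 and 9.34 at E9.5, and 8.66 and 8.70 in d6M. Rb1 rose by 1.27 from d6F to d3ag6 (SE 0.15, adjusted p = 0.00245) and by 1.43 from d3 (SE 0.15, adjusted p = 0.000685), and both calls held with any array left out. Its call in d6M minus E9.5 (-0.59, adjusted p = 0.0338) was lost in all 4 such fits, and that in E12.5 minus E9.5 (0.71, adjusted p = 0.00888) without E12.5 replicate 2. E2f2, an activator that Rb1 binds, fell by 1.04 from d6F to d3ag6 (SE 0.17, adjusted p = 0.0109), which did not hold when replicate 2 of d6F or of d3ag6 was left out. Mybl2, which encodes B-Myb, varied among the 4 EA1013 groups (adjusted p of the F test 0.00366, at most 0.0383 with an array left out). It read 11.85 and 11.74 in d3, 11.82 and 11.79 in d6F, 11.36 and 11.37 in d3ag6, and 10.96 and 10.88 at E12.5. Foxm1 was 7.32 and 7.38 in d3ag6 against 8.01 and 7.82 in d6F, a difference of -0.56 that did not pass (adjusted p = 0.127). Cdk6, a kinase that inactivates Rb1, fell by 1.57 from d3 to d6F (SE 0.36, adjusted p = 0.045), a call kept only without d3 replicate 1.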

How the data were processed

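The authors deposited 1 value per probe set and array on a log2 scale, as read from the range of the values; the log base, the summarisation and the normalization before deposit are not given in the sources used here. Array medians as deposited were 4.73 to 4.87, so values were quantile normalized with limma (version 3.58.1, R 4.3.3). Of 45101 probe sets, 34958 named 1 gene in the platform annotation; 932 with several genes and 9211 with none were left out. Genes above 4.81 on 2 or more arrays were tested. One mean per group was fitted over all 12 arrays (6 residual degrees of freedom) and moderated with eBayes; tests were two-sided. The number of arrays limits the precision. Summaries and figures were made with pandas 2.3.3, numpy 2.4.6 and matplotlib 3.10.9 under Python 3.11.15. The fit was tested on simulated data.

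The members and lists were chosen with earlier results of these data known. All array values were to be printed for called members; the other genes given in full, the count of intervals within 2-fold and the comparison with bright genes were chosen after the values were seen. List genes were named in order of adjusted p, up to 3 per list and comparison; Incenp, Cdca8 and Foxm1 were added afterwards. Summed levels are log2 of summed linear signal. Deviations of same-numbered arrays correlated between -0.25 and 0.55 over pairs of groups, so replicate numbers did not pair the samples in general; in E9.5 and d6M, whose correlation was 0.55, the number coincides with the array code, which was used as the block. The alternatives were the values as deposited, no filter or one at the 75th percentile, a mean over a gene's probe sets, the second probe set, eBayes with trend and robust, fewer arrays, a 2-fold minimum, blocks for replicate and code, and each array left out.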

Additional observations from a re-analysis of the deposited data

How the results depend on the processing

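Of 130 values of the 9 counts of called members under other settings, 106 were equal or within 1.5 times, and 24 moved. With a mean over a gene's probe sets, 1 member was called in d6F minus d3 (Top2a), 1 in d3ag6 minus d6F and 1 in d3ag6 minus d3 (Rrm2), 1 in d6F minus d6M (Top2a) and 3 in the F test over d3, d6F, d3ag6 and E12.5 (Bub1, Rrm2 and Top2a); for Top2a that mean includes 2 probe sets below 4.81 on every array. With the second probe set, the F test called 1 (Bub1). With eBayes with trend and robust, 1 was called in d3ag6 minus d6F, 1 in d3ag6 minus d3 and 1 in the F test (Rrm2), and 5 in E12.5 minus E9.5, where Plk1 and Aurka joined. With the filter at the 75th percentile, 1 was called in d3ag6 minus d3 and 1 in the F test (Rrm2). With the values as deposited, the F test called 1 (Rrm2). With only the 8 arrays coded EA1013, 1 was called in d3ag6 minus d3 (Gins2) and 1 in the F test (Rrm2). With only the arrays compared, 2 were called in d3ag6 minus E12.5 (Aurkb and Cdc6) and 1 in the F test (Rrm2). With the replicate number as a block, although the numbers do not pair the samples beyond E9.5 and d6M, 1 was called in d3ag6 minus d3 (Rrm2), 1 in d3ag6 minus E12.5 (Aurkb) and 2 in the F test (Aurkb and Rrm2); the other 6 counts were equal. With an array left out, the count was 0 to 1 in d6M minus E9.5 and in d6F minus d6M (Pola1, without d6M replicate 1) and 1 to 3 in E12.5 minus E9.5. The cause was not tested. Tyms was below the filter, and so not tested, with the 75th percentile filter, the mean over probe sets and the second probe set. For single members, 375 values kept their side of the threshold, 24 passed it anew and 8 no longer passed; 0 turned direction. With 2 arrays a group, small changes of members with a wide spread are not resolved.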
